A study of Mus musculus with 20 samples.

Results

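White adipose tissue of 10 high-fat-fed mice was compared, 5 that drank a water extract of Tibetan tea and 5 that drank water, out of 20 mice in the series. The members were taken by their labels alone, as all libraries marked high-fat diet with tea or with water. All mice of the series had free access to food and drink for 10 weeks under a light and dark cycle of 12 hours, and the diet and the drink were the factors assigned. The other 10 libraries, from chow-fed mice with tea or with water, entered the same fit and are otherwise used where the diets are set side by side. Strain, sex, age, fat depot, hour of collection and tea dose were not stated in the labels used here. Each library is of 1 mouse, and mouse, dissection and library preparation all enter the spread behind the p-values.

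White fat stores triglyceride in adipocytes, which take up fatty acids, make some themselves from glucose and release them again by lipolysis. When fat expands on a high-fat diet, adipocytes enlarge and raise leptin, the extracellular matrix is remodelled, and macrophages that scavenge lipid gather around dying adipocytes and switch on a gene set known for Trem2, Gpnmb and Itgax. Tibetan tea is a post-fermented dark tea. Its caffeine is an antagonist of adenosine receptors and a substrate of cytochrome P450 enzymes.

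The 10 libraries held 58833662 to 93314761 reads in genes, over 25559 to 27826 genes with a read. The tissue label fits adipocyte markers: Adipoq, adiponectin, stood at 1957 to 3532 CPM (reads of a gene scaled to a common library total) with water and 844.1 to 3695 CPM with tea, and Fabp4, the fatty acid carrier, at 8056 to 14870 and 3562 to 15310 CPM. Markers of other cells were present at lower levels, with macrophage C1qa at 55.3 to 191.3 CPM, endothelial Pecam1 at 164.7 to 506.5 CPM, mesothelial Upk3b at 7.46 to 79.6 CPM and lymphocyte Cd3e at 0.349 to 1.95 CPM over the 10 libraries. Transcripts of other organs were concentrated in a few libraries. Kidney genes took 3.34% of reads in tea replicate 4 and 0.0126% to 0.0253% in the other 9, and genes of the 20 listed adipocyte identity markers took 1.81% there against 3.99% to 8.13% elsewhere. Liver genes took 0.204% in tea replicate 4 and 0.00147% to 0.025% in the other 9, and intestine genes 0.0798% and 0.00216% to 0.00513%. Genes of the male reproductive tract took 4.08% and adrenal genes 1.70% of reads in water replicate 4. Adrenal genes also took 0.0761% in tea replicate 2 and at most 0.0123% in any further high-fat library. Skeletal muscle genes took 4.24% in tea replicate 1, 3.87% in water replicate 5, 1.12% in tea replicate 3 and 0.616% in water replicate 3. Among the chow libraries of the same fit, chow water replicate 1 held 36.13% of its reads in genes of the pancreas acinus. No other library of the series held more than 0.0079%, and the adipocyte identity markers took 1.489% in chow water replicate 1. Tea replicate 4 lay at −152.95 on the first principal component of the 10 libraries (47.75% of the variance) and the others between −20.57 and 34.03.

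By edgeR (quasi-likelihood F test, p-values adjusted after Benjamini and Hochberg), 928 of 21306 genes tested differed between tea and water at an adjusted p below 0.05, which is 4.36%. Of these, 439 (2.06%) were higher with tea, with a median log2 fold change of 1.06, and 489 (2.3%) were lower, with a median of −1.17. A called difference is named by these terms below, and each list of genes is read beside those percentages. The lists were written with earlier results of these data known. A share set beside those percentages is therefore a description and no independent support. In 1182 genes (5.55%) the 5 tea libraries lay entirely above or entirely below the 5 water libraries, 504 higher (2.37%) and 678 lower (3.18%), and 598 genes were both called and without overlap. The spread used by the test was estimated over all 4 groups of the series. Without chow water replicate 1, the library with 36.13% pancreas transcripts, 1577 genes were called, among them all 928. With only the 2 high-fat groups in the fit 21 genes were called, 20 of them shared, and 555 of the 928 had an adjusted p below 0.1 there. Leaving out 1 high-fat library at a time gave between 212 calls (without water replicate 1) and 2017 (without tea replicate 5), and 174 of the 928 genes were called in all 10 of those fits. Water replicate 1 was the highest water library in 67.3% of the genes called lower, and tea replicate 5 was the highest tea library in 75.9%. Among genes called higher, tea replicate 3 was the highest tea library in 40.3% and tea replicate 4 in 38.0%. What sets these libraries apart was not tested.

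**Figure D1:**
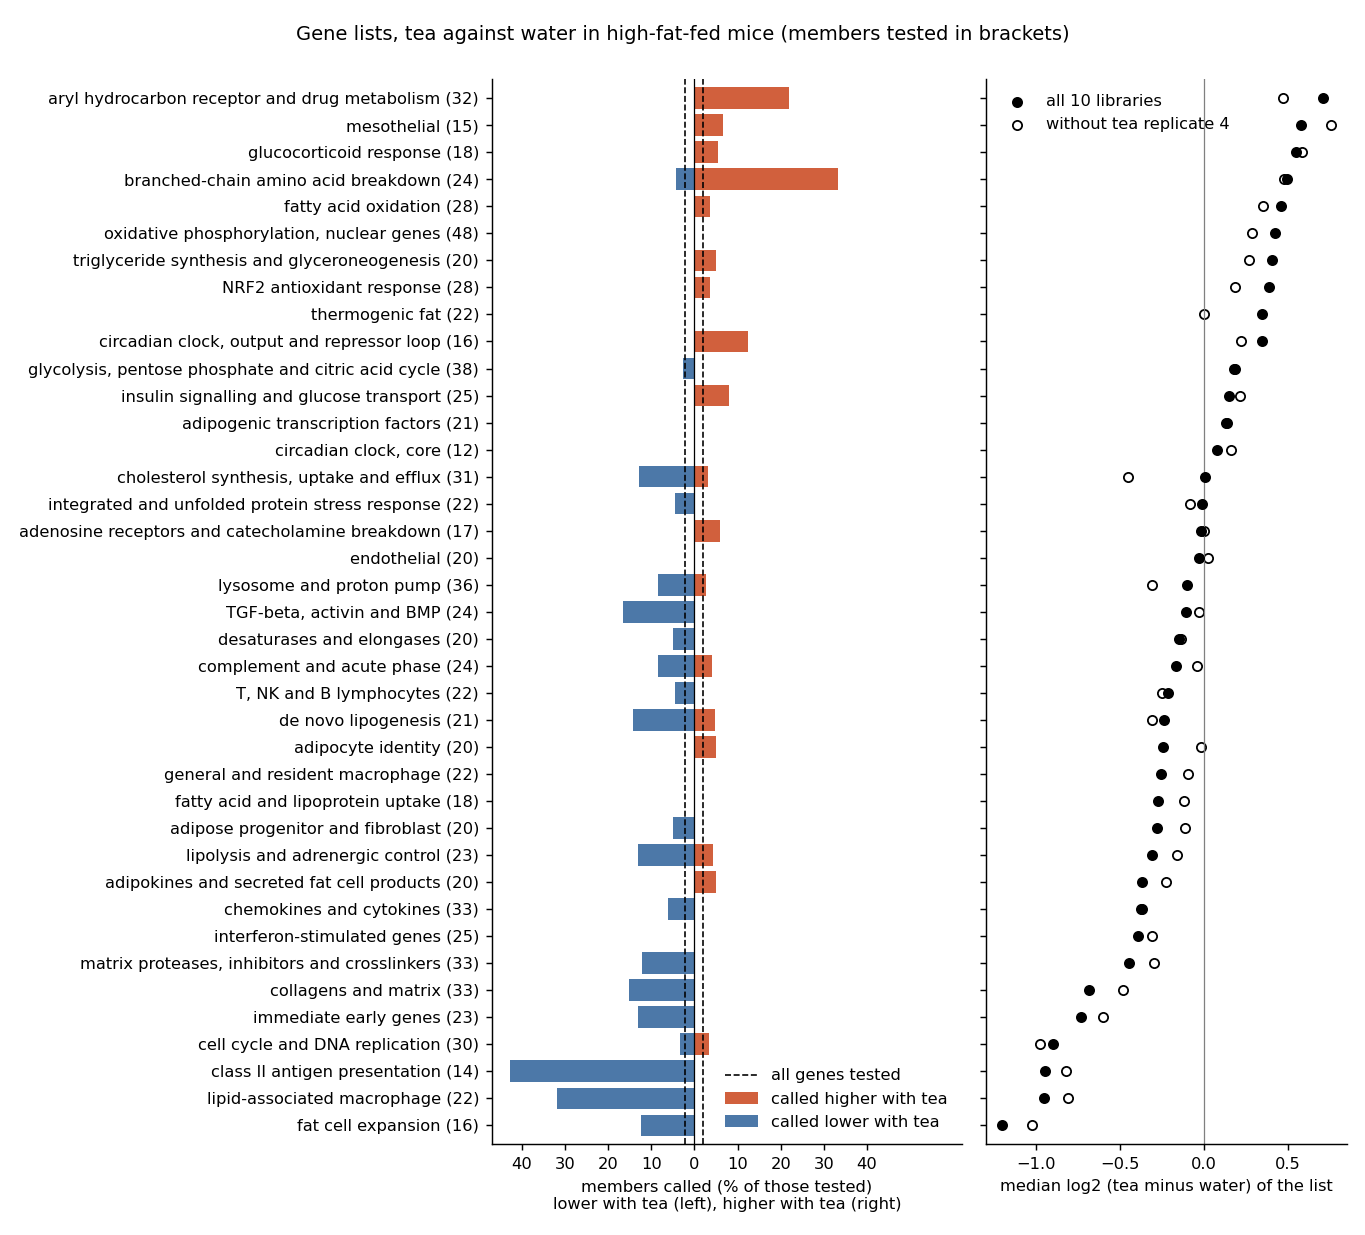
Gene lists in tea against water of high-fat-fed mice, ordered by their median. Left, members called lower (to the left) and higher (to the right) as a percent of members tested, with dashed lines at 2.3% and 2.06%, the shares over all genes tested. Right, the median log2 fold change (tea minus water) of all tested members, with all libraries (filled) and without tea replicate 4 (open). Class II antigen presentation and lipid-associated macrophage genes reach furthest to the left, and branched-chain amino acid breakdown and drug metabolism furthest to the right.

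The genes with the lowest p among those higher with tea included Rassf6, Acot4, Dpyd and Sqor. Rassf6, a Ras association domain protein tied to Hippo signalling and apoptosis (GRCm39, chromosome 5, 90750935 to 90788516, minus strand), stood at 0.490, 1.05, 1.19, 0.926 and 0.759 CPM with water and at 7.82, 18.2, 14.2, 11.6 and 3.16 CPM with tea. Even the lowest tea library was above every water library. The water libraries averaged 0.884 ± 0.272 CPM (SD, n = 5; errors after ± are SDs of 5 libraries throughout), and the rise with tea was 12.4-fold (log2 3.64, SE 0.38, edgeR adjusted p = 0.00035), and the log2 value lay between 3.38 and 3.87 with any 1 library left out. Dpyd, dihydropyrimidine dehydrogenase of pyrimidine breakdown, ran from 29.0 to 36.3 CPM with water and from 56.6 to 149.1 CPM with tea (log2 1.70, SE 0.24). Sfxn1, a mitochondrial serine carrier, rose from 101.2 ± 16.8 to 257.0 ± 85.1 CPM (log2 1.35, SE 0.20). Sqor, the mitochondrial enzyme that oxidises hydrogen sulfide, had 76.7, 86.0, 86.4, 70.1 and 95.5 CPM with water and 137.5, 140.1, 146.7, 142.5 and 124.4 CPM with tea (log2 0.74, SE 0.12, edgeR adjusted p = 0.00567). Las1l, a factor of ribosomal RNA processing, rose by a smaller amount, from 51.4 ± 3.32 to 72.9 ± 5.68 CPM (log2 0.51, SE 0.08). These 5 genes were called whichever of the 10 libraries was left out.

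**Figure D2:**
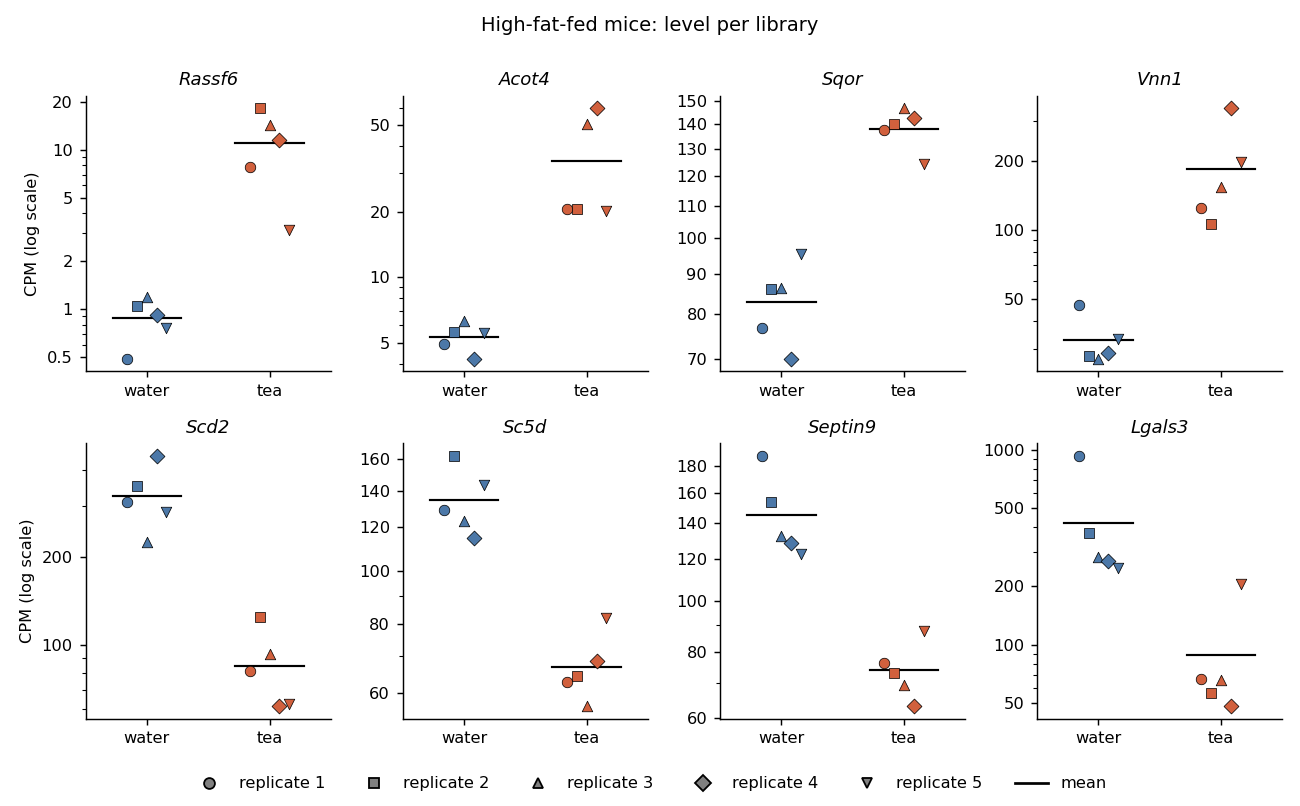
Level of 8 genes in each of the 10 high-fat libraries, in CPM on a log axis, with water (blue) and tea (red). Symbols give the replicate number, which was not taken to pair mice across groups, and bars give group means. In all 8 panels the 5 tea libraries lie on one side of the 5 water libraries, and for Lgals3 water replicate 1 (930.2 CPM) and tea replicate 5 (205.7 CPM) are the highest of their groups.

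Acot4, Acot3, Vnn1 and Acsm3 were higher with tea. Each was highest in tea replicate 4, the library with 3.34% kidney and 0.204% liver transcripts. The part of other tissue in their rises was not tested. Acot4, a peroxisomal thioesterase that frees dicarboxylic acids from coenzyme A (chromosome 12, 84085153 to 84095375, plus strand), had 4.96, 5.59, 6.32, 4.23 and 5.54 CPM with water and 20.6, 20.6, 50.5, 59.5 and 20.2 CPM with tea. Tea replicates 3 and 4 were the high ones, and every tea library was above every water library (log2 2.69, SE 0.30, edgeR adjusted p = 0.000428; 2.39 to 2.83 with any 1 library left out). Acot3, its neighbour, was at 0 to 0.0949 CPM with water and at 0.223, 0.604, 1.65, 15.3 and 0.112 CPM with tea, so that tea replicate 4 set most of its mean (log2 6.38, and 3.92 without that library, called in both). Acot1 (log2 3.35, SE 0.97, edgeR adjusted p = 0.0559) and Acot2 (log2 0.73, adjusted p = 0.162) were not called, and Acot1 stood at 103.1 CPM in tea replicate 4 and at 1.23 to 8.49 CPM in the other tea libraries. The Acot genes lie side by side as related copies, and reads can be shared where their sequences are alike. Vnn1, the pantetheinase vanin 1, which releases the coenzyme A precursor pantothenate, stood at 47.0, 28.1, 27.4, 28.9 and 33.4 CPM with water and at 124.8, 106.0, 154.6, 339.4 and 197.9 CPM with tea (log2 2.49, SE 0.36, edgeR adjusted p = 0.0022). Acsm3, a medium-chain acyl-CoA synthetase, was 6.26 to 26.7 CPM with water and 46.6 to 713.5 CPM with tea, and 39.7% of its exonic bases overlap a gene on the opposite strand (log2 3.95, and 2.92 without tea replicate 4). Its groups did not overlap, and the call held in each of the 10 fits.

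Fatty acid oxidation genes leaned upward without passing the test. The 28 listed genes took 0.5336% to 0.842% of reads with water and 0.7835%, 1.261%, 0.772%, 1.373% and 0.643% with tea. Only tea replicates 2 and 4 lay above the water range. Of 28 listed genes 27 had a log2 above 0 (median 0.46, and 0.35 without tea replicate 4), and 1 was called, beside 2.06% of all genes. That gene, Ehhadh, the peroxisomal bifunctional enzyme, ran from 52.2 to 93.0 CPM with water and stood at 136.6, 104.8, 414.4, 1658 and 93.8 CPM with tea (log2 2.69, SE 0.67, edgeR adjusted p = 0.0326). It fell to 1.33 on the log2 scale without tea replicate 4, the library with 3.34% kidney transcripts, and lost its call there. The call also ended without tea replicate 3 or any 1 water library. The part of other tissue in the rise of Ehhadh was not tested. Of 48 nuclear genes of oxidative phosphorylation 47 had a log2 above 0 (median 0.43, 0.29 without tea replicate 4) and 0 were called by edgeR (14 at an unadjusted p below 0.05, and 1 called by DESeq2 and 0 by limma voom). These 48 genes took 0.7296% to 1.079% of reads with water and 1.069%, 1.749%, 1.021%, 1.57% and 0.7407% with tea. Here too only tea replicates 2 and 4 lay above the water range. Reads of the mitochondrial genome took 3.37% to 6.14% with water and 3.21% to 9.98% with tea. Of 22 thermogenic genes 0 were called by edgeR (1 at an unadjusted p below 0.05, and 1 called by DESeq2 and 0 by limma voom), and Ucp1, the uncoupling protein of brown and beige fat, ran from 0.894 to 868.7 CPM with water and 32.7 to 429.2 CPM with tea (log2 −1.11, adjusted p = 0.736).

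Enzymes that oxidise drugs and other foreign compounds were higher with tea in 7 of 32 tested members (33 listed), with 0 lower, beside 2.06% of all genes higher. The median of the list was 0.71, and 0.48 without tea replicate 4, against 0.02 over all genes. No member was called in the fit of only the 2 high-fat groups. Leaving out 1 high-fat library gave from 2 called higher (without water replicate 1) to 9 (without tea replicate 4 or 5). Cyp2e1, which oxidises ethanol, acetone and small solvents, was abundant: 774.8, 1566, 1704, 842.3 and 1972 CPM with water and 4646, 4104, 10030, 2912 and 2566 CPM with tea. Its groups did not overlap (log2 1.82, SE 0.42, edgeR adjusted p = 0.0233), although the call ended without water replicate 1, 2 or 4 or tea replicate 3. Fmo2, a flavin monooxygenase, rose from 80.6 ± 18.5 to 202.3 ± 120.8 CPM (log2 1.33, SE 0.30; call lost without water replicate 1), with tea replicate 4 the highest at 412.9 CPM and a log2 of 0.89 without it. Por, the reductase that passes electrons to the cytochromes P450, was 267.4 to 403.0 CPM with water and 475.2 to 680.5 CPM with tea (log2 0.71, SE 0.18), and its call ended in 7 of the 10 fits without a library, those without water replicate 1, 2, 3 or 4 or tea replicate 1, 2 or 3. Cyp2f2 stood at 0.820 to 1.55 CPM with water and at 3.02, 37.6, 2.18, 20.1 and 1.47 CPM with tea (log2 3.46, call lost without water replicate 1, 2, 3 or 5 or tea replicate 2). Cyp1a1, the classic target of the aryl hydrocarbon receptor, was 0.0764 to 1.38 CPM with water and 2.49, 8.60, 12.1, 0.957 and 0.399 CPM with tea. Tea replicates 4 and 5 lay within the water range, the adjusted p was 0.0482 by edgeR, and the call ended in 7 of 10 fits, all but those without water replicate 3 or tea replicate 4 or 5. Cyp2d22 and Fmo1, the members with the lowest p, were called in all 10, although tea replicate 4 (54.0 CPM of Cyp2d22) lay below the highest water library (55.2 CPM).

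Fatty acid synthesis did not move as a block. Of 21 listed genes of de novo lipogenesis 1 rose and 3 fell, beside 2.06% and 2.3% of all genes. Scd2, a stearoyl-CoA desaturase whose reads can be shared with its copies, had 311.4, 350.8, 226.6, 447.1 and 285.7 CPM with water and 81.3, 125.0, 93.4, 61.6 and 62.6 CPM with tea, with no overlap. Scd1, the far more abundant desaturase, was 23240 to 48520 CPM with water and 10050 to 50240 CPM with tea (log2 −0.12, adjusted p = 0.934). Pnpla3, a lipid droplet protein induced by feeding, was 105.2, 150.2, 104.3, 75.1 and 111.0 CPM with water and 11.3, 38.4, 6.49, 5.26 and 22.0 CPM with tea. It fell by 2.71 on the log2 scale (SE 0.57, edgeR adjusted p = 0.0163), called in each of the 10 fits. Acacb, the acetyl-CoA carboxylase that makes malonyl-CoA at mitochondria, moved the other way, from 214.8 ± 71.8 to 824.1 ± 467.8 CPM (log2 1.94, SE 0.43), with tea replicate 4 (183.3 CPM) inside the water range. Pgd, of the pentose phosphate pathway, fell from 314.0 ± 72.7 to 182.0 ± 43.6 CPM (log2 −0.79). The calls of Acacb and Pgd ended without water replicate 1 or 2 or tea replicate 2 or 3. Fasn, fatty acid synthase, was 892.2 to 1859 CPM with water and 760.0, 3529, 513.8, 133.6 and 319.6 CPM with tea (log2 −0.23, adjusted p = 0.891), and stood at −1.52 without tea replicate 2.

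Sterol synthesis genes were among those that fell. Sc5d, lathosterol oxidase, a late enzyme of cholesterol synthesis (chromosome 9, 42162891 to 42175552, minus strand), had 129.2, 161.9, 123.1, 114.8 and 143.1 CPM with water and 62.8, 64.4, 56.9, 68.7 and 82.4 CPM with tea. All tea libraries were below all water libraries, close to a halving of the mean from 134.4 ± 18.5 to 67.0 ± 9.56 CPM (log2 −1.004, SE 0.14, edgeR adjusted p = 0.0022; −1.09 to −0.93 with any 1 library left out). Sc5d was also among the 21 genes called with only the 2 high-fat groups. Insig1, which holds the sterol sensor complex in the endoplasmic reticulum and is itself a target of SREBP, went from 179.1 ± 43.2 to 87.9 ± 24.6 CPM without overlap (log2 −1.03, SE 0.27, adjusted p = 0.0376). Mvk, mevalonate kinase, was 16.2 to 19.4 CPM with water and 7.86 to 13.1 CPM with tea (log2 −0.70). The call of Insig1 ended in every fit without a library except that without tea replicate 5, and that of Mvk ended without tea replicate 2, 3 or 4 or water replicate 1, 2, 4 or 5. Soat1, the enzyme that esterifies cholesterol, fell by 1.93 on the log2 scale, with water replicate 4 at 244.8 CPM, the library with 1.70% adrenal transcripts, and by 1.08 without that library, where it was not called. Its call also ended without water replicate 1 or tea replicate 1, 2 or 3. Npc1, the lysosomal exporter of cholesterol, rose from 62.3 ± 6.48 to 133.4 ± 63.8 CPM (log2 1.10, adjusted p = 0.0482, called in 2 of the 10 fits, those without tea replicate 4 or 5). In all, 1 of 31 cholesterol genes rose and 4 fell, beside 2.06% and 2.3% of all genes. The median of the list was 0.01 and, without tea replicate 4, −0.45. Sqle, squalene epoxidase, was not called (log2 0.38) and stood at 38.2 CPM in tea replicate 4 and at 5.41 to 12.7 CPM in the other tea libraries.

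The stretches before the start of Sc5d and Insig1, which fell, and of Acot4, which rose, are shown because each holds the letters CACGTG, the E-box bound by basic helix-loop-helix factors such as the clock activators, MYC and SREBP. They are RefSeq promoters of build GRCm38.p6, bases 250 to 51 before the gene start, 5′ to 3′ along the gene, with the E-box in capitals. The positions are chr9:42264351-42264550 (minus strand) for Sc5d, chr5:28071162-28071361 (plus strand) for Insig1 and chr12:84038129-84038328 (plus strand) for Acot4.
Sc5d: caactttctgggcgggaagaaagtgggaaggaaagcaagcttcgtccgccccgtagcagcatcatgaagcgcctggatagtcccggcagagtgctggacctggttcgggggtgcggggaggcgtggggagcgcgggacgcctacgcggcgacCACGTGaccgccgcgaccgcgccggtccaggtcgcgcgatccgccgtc
Insig1: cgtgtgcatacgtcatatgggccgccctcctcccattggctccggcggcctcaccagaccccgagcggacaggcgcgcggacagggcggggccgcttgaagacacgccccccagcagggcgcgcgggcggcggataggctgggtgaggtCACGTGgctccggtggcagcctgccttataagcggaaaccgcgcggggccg
Acot4: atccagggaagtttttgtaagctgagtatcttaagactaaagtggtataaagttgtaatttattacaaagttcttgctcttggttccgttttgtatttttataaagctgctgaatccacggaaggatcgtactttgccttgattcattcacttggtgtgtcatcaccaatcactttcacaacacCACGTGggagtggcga
The E-box begins 98, 101 and 66 bases before the start in Sc5d, Insig1 and Acot4. The bases that follow the start were found in a GENCODE transcript of the gene for Insig1 and Acot4. They were not found for Sc5d, so its position is less certain. The letters of the E-box, which read alike on both strands, occur in the 250 bases before the start in 6.86% of 27025 RefSeq genes and in 8.96% of the 13686 tested genes with a promoter in the table. They occur in 11.9% of 312 matched genes called higher and in 8.71% of 379 matched genes called lower. Of the 4 cholesterol genes called lower 2 hold it. Other motifs were searched for in the same window. An antioxidant element was also found in 2 of these 4 genes, and a sterol element in 0 of them. Among tested genes with a promoter, the antioxidant element occurs in 13.7% and the sterol element in 0.0658%. The sterol element as searched is so rare that its absence from 4 genes decides nothing. The E-box count in these 4 genes is therefore no separate evidence for sterol control. A match describes letters in this window and shows no binding.

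Of 20 tested genes for secreted products of fat cells 1 was called higher by edgeR (DESeq2 called 1 higher and 5 lower), and of 20 adipocyte identity markers 1 was, Cfd in both lists, beside 2.06% of all genes. Lep, the satiety hormone leptin, had 3080, 1660, 950.8, 1062 and 1286 CPM with water and 165.3, 66.5, 5.06, 97.7 and 942.7 CPM with tea. Each tea library was below each water library, tea replicate 5 only just, and the difference was not called (log2 −2.65, SE 1.07, adjusted p = 0.144). Without tea replicate 5 it was −4.27 and was called. In the list of genes known to track fat cell expansion, 0 of 16 rose and 2 fell, beside 2.3% of all genes lower, and the median was −1.2. Cav1, the caveola protein of large adipocytes, went from 2096 ± 480 to 833.0 ± 433.0 CPM (log2 −1.33, adjusted p = 0.0402), with tea replicate 5 (1469 CPM) above water replicate 4 (1309 CPM). Bmp3 was 45.6 to 135.6 CPM with water and 6.36 to 34.6 CPM with tea (log2 −1.94, adjusted p = 0.0376). The calls of Cav1 and Bmp3 each ended in 8 of 10 fits, all but those without water replicate 4 or tea replicate 5. Cfd, the adipocyte protease adipsin, was 1477 to 3125 CPM with water and 8021, 8757, 19420, 1840 and 4972 CPM with tea. Tea replicate 4 was inside the water range, and the call (log2 1.91, SE 0.50, adjusted p = 0.0376) ended in 8 fits, all but those without tea replicate 4 or 5. Adipoq and Pparg, the master regulator of adipocytes, were not called (log2 −0.19 and 0.26, adjusted p = 0.813 and 0.693). In bulk tissue, fewer cells of a type and less RNA per cell cannot be told apart.

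Pck1, which makes the glycerol backbone of triglyceride from pyruvate in fat, rose from 2114 ± 609.7 to 5135 ± 1761 CPM. Its water libraries had 1436 to 2713 CPM and its tea libraries 3623 to 8155 CPM, without overlap (log2 1.28, SE 0.31, edgeR adjusted p = 0.029), and the call ended without tea replicate 3 or 4 or water replicate 1, 2 or 4. Among 23 genes of lipolysis and its adrenergic control 1 rose and 3 fell, beside 2.06% and 2.3% of all genes. Ptger3, a prostaglandin E receptor that restrains lipolysis, had 91.7, 104.2, 69.9, 65.5 and 86.5 CPM with water and 39.5, 41.8, 31.4, 22.2 and 45.8 CPM with tea, with no overlap. It fell by 1.21 on the log2 scale (SE 0.21, edgeR adjusted p = 0.0062) and was called in each of the 10 fits. Hilpda, an inhibitor of the lipase ATGL, was 11.6 to 37.8 CPM with water and 4.72 to 12.7 CPM with tea (log2 −1.29). The call of Hilpda ended without water replicate 1 or 2 or tea replicate 1, 2, 3 or 4. Insr, the insulin receptor, rose from 154.5 ± 18.0 to 228.2 ± 37.8 CPM without overlap (log2 0.56, SE 0.15, adjusted p = 0.0456), and its call was kept only without tea replicate 4 or 5.

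Breakdown of branched-chain amino acids, a mitochondrial route by which adipocytes feed carbon into lipid synthesis and the citric acid cycle, held the largest share of members called higher among the lists plotted. Of 24 genes 8 rose and 1 fell, beside 2.06% and 2.3% of all genes, 23 had a log2 above 0, and the median was 0.49 (0.48 without tea replicate 4). Bckdha, a subunit of the branched-chain ketoacid dehydrogenase, was 55.4 to 72.1 CPM with water and 80.5 to 143.7 CPM with tea (log2 0.76), though 61.7% of its exonic bases overlap a gene on the opposite strand. Dbt, another subunit, rose by 0.62, and Ppm1k, the phosphatase that activates the complex, rose from 14.0 ± 2.04 to 26.3 ± 7.98 CPM (log2 0.91, SE 0.19, edgeR adjusted p = 0.0161). Hsd17b10, the dehydrogenase of the isoleucine branch, had 62.7, 62.6, 64.1, 63.1 and 67.0 CPM with water and 112.6, 183.3, 288.5, 99.1 and 79.4 CPM with tea. The water mice were nearly alike and the tea mice spread widely above them (log2 1.26, SE 0.28, adjusted p = 0.019). Ivd, Hibadh and Aldh6a1, which act further down the leucine and valine branches, rose by 0.78, 0.71 and 0.95, each without overlap and each highest in tea replicate 4. Bcat1, the cytosolic transaminase, fell from 9.80 ± 2.92 to 2.94 ± 1.503 CPM (log2 −1.74, SE 0.39). All 9 calls ended without water replicate 1, and 8 of the 9 without tea replicate 3. Of the list, 2 genes were called higher without tea replicate 2 or water replicate 2, 3 without water replicate 4, 5 without tea replicate 4 or water replicate 5, 6 without water replicate 3, 7 without tea replicate 1 and 10 without tea replicate 5. With only the 2 high-fat groups in the fit 0 were called by edgeR.

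Transcripts known from lipid-laden macrophages were lower with tea in 7 of 22 members and higher in 0, beside 2.3% and 2.06% of all genes, with a median of −0.95. The fit of only the 2 high-fat groups called 0 of them. Leaving out 1 high-fat library gave from 2 called lower (without water replicate 1 or tea replicate 2 or 3) to 13 (without tea replicate 5). Lgals3, galectin-3, had 930.2, 375.7, 281.7, 269.0 and 247.8 CPM with water and 66.9, 56.5, 66.0, 48.4 and 205.7 CPM with tea. Gpnmb, a glycoprotein of lysosome-rich macrophages, had 863.0, 384.9, 299.5, 310.3 and 254.1 CPM with water and 41.1, 32.7, 61.0, 18.1 and 222.8 CPM with tea. In both genes water replicate 1 was highest of the water libraries, tea replicate 5 was highest of the tea libraries, and the groups did not overlap. Lgals3 was called in each of the 10 fits, and Gpnmb lost its call without water replicate 1 or tea replicate 2 or 3. Dcstamp, which drives the fusion of macrophages, was 1.34 to 6.18 CPM with water and 0.0309 to 0.0905 CPM in tea replicates 1 to 4, with 0.884 CPM in tea replicate 5 (log2 −3.56, adjusted p = 0.0482, called only in the fit without tea replicate 5). Markers carried by macrophages in general were called in 0 of 22 cases by edgeR (median −0.25; 6 at an unadjusted p below 0.05, and 3 called by DESeq2 and 1 by limma voom): C1qa was 91.7 to 164.4 CPM with water and 55.3 to 191.3 CPM with tea (log2 0.01), Csf1r had a log2 of −0.34, and Adgre1, F4/80, one of −1.41 (adjusted p = 0.0564). The summed level of that general list ran from 1678 to 3650 CPM with water and from 918.3 to 2506 CPM with tea, and was lowest in tea replicate 4.

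Class II antigen presentation genes fell in 6 of 14 cases and rose in 0, beside 2.3% and 2.06% of all genes. None was called in the fit of only the 2 high-fat groups. Leaving out 1 high-fat library gave from 1 called lower (without water replicate 1) to 8 (without water replicate 5 or tea replicate 5). H2-Ab1, a class II chain whose family members are alike in sequence, had 721.1, 501.1, 500.3, 345.7 and 286.1 CPM with water and 209.3, 265.1, 214.0, 162.4 and 277.7 CPM with tea. The groups came close without overlap (log2 −1.06, SE 0.24, edgeR adjusted p = 0.0223). H2-DMa, part of the peptide loading complex, was 20.2 to 57.4 CPM with water and 12.9 to 20.1 CPM with tea (log2 −1.11, SE 0.26). The calls of H2-Ab1 and H2-DMa ended without water replicate 1 or 2 or tea replicate 3, and that of H2-DMa also without water replicate 3. Trac, the constant region of the T cell receptor alpha chain, fell from 3.72 ± 0.920 to 1.02 ± 0.366 CPM (log2 −1.86, SE 0.34, edgeR adjusted p = 0.00915) and was called in all 10 fits, whereas Cd3e, of the same receptor complex, was not (log2 0.48, adjusted p = 0.525). It was the 1 member called of 22 lymphocyte genes, beside 2.3% of all genes lower.

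Among single inflammation genes, Adam8, a membrane protease of leukocytes, had 141.2, 70.1, 61.3, 44.7 and 43.1 CPM with water and 6.87, 4.71, 3.13, 4.51 and 32.6 CPM with tea (log2 −2.80, SE 0.56, edgeR adjusted p = 0.014). Ubd, the interferon- and TNF-inducible ubiquitin-like protein FAT10, had 185.7, 60.8, 31.5, 41.5 and 24.2 CPM with water and 6.72, 2.80, 5.56, 3.63 and 17.0 CPM with tea (log2 −3.27, SE 0.58, adjusted p = 0.00779). Tnip3, a partner of the NF-kB brake A20, was 3.97 to 18.2 CPM with water and 0.510 to 2.63 CPM with tea (log2 −2.88, SE 0.51). These 3 had no overlap and were called in each of the 10 fits, and in each of them water replicate 1 was the highest water library and tea replicate 5 the highest tea library. Lbp, the binding protein of bacterial lipopolysaccharide, fell from 226.6 ± 99.8 to 55.0 ± 31.9 CPM (log2 −2.04, SE 0.42; call lost without water replicate 1). Saa3, an acute-phase protein of fat, and Il1rn, the interleukin-1 receptor antagonist, fell by 3.18 and 2.66 on the log2 scale, and Saa3 stood at −2.02 without water replicate 1, which held 68.4 CPM against 5.56 to 16.2 CPM in the other water libraries. Their calls ended without water replicate 1 or 2 or tea replicate 1, 2, 3 or 4, and that of Saa3 also without water replicate 3 or tea replicate 5. Of 33 chemokines and cytokines 2, Il1rn and Tgfb1, fell, beside 2.3% of all genes (call of Tgfb1 lost without water replicate 1, 2 or 3 or tea replicate 2, 3 or 4), and Ccl2 and Tnf were not called (log2 −1.19 and −1.40, adjusted p = 0.224 and 0.246). Of 25 interferon-stimulated genes 0 were called by edgeR (6 at an unadjusted p below 0.05, and 1 called by DESeq2 and 1 by limma voom).

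Collagens and other matrix proteins fell in 5 of 33 cases and rose in 0, beside 2.3% and 2.06% of all genes, with a median of −0.68 (−0.48 without tea replicate 4). The fit of only the 2 high-fat groups called 0 of this list. Leaving out 1 high-fat library gave from 1 called lower (without water replicate 1 or 2 or tea replicate 2 or 3) to 11 (without tea replicate 5). Col15a1, a collagen of basement membranes around adipocytes and vessels, had 401.6, 508.6, 325.7, 263.9 and 459.0 CPM with water and 108.1, 44.5, 40.02, 30.8 and 151.8 CPM with tea. Col6a1, a chain of the collagen VI that coats adipocytes, had 755.3, 575.7, 457.1, 428.5 and 554.6 CPM with water and 289.2, 177.5, 192.9, 78.8 and 364.8 CPM with tea (log2 −1.33, SE 0.32, edgeR adjusted p = 0.0272). Both were without overlap, and tea replicates 1 and 5 were the highest of the tea group. Serpinh1, the collagen chaperone HSP47, had 552.7, 664.2, 559.2, 381.0 and 588.2 CPM with water and 271.1, 134.0, 138.7, 106.6 and 315.5 CPM with tea (log2 −1.51, SE 0.31, edgeR adjusted p = 0.0144), called in each of the 10 fits. The fibrillar collagens Col1a1 (log2 −0.82, adjusted p = 0.179), Col1a2 (log2 −0.60) and Col3a1 (log2 −1.31, adjusted p = 0.0898) were not called. Timp1, an inhibitor of matrix proteases, was 5.24, 1.92, 2.45, 12.1 and 1.76 CPM with water and 0.756 to 1.54 CPM with tea. Water replicate 4 was the highest, and without it the fall was 1.13 on the log2 scale in place of 1.87 and was not called, as also without water replicate 1 or tea replicate 1, 2, 3 or 4. Of 20 markers of progenitors and fibroblasts 1, Col15a1 itself, fell, beside 2.3% of all genes, and 13 had a log2 below 0 (median −0.28, and −0.11 without tea replicate 4). Their summed level was 1555 to 2205 CPM with water and 1002 to 1786 CPM with tea, and Pdgfra and Dcn, defining markers, were not called (log2 0.02 and 0.15). The part of these cells in the fall of the collagens was not tested. Of 24 tested genes of the TGF-beta, activin and BMP family 4 fell, beside 2.3% of all genes. Among the 4 were Inhbb, the activin B subunit made by adipocytes (log2 −1.23), and Gdf3, a ligand known from fat (log2 −3.23, with 0.997 to 6.30 CPM with water and 0.0537 to 0.722 CPM with tea). The calls of Col6a1 and Inhbb ended without water replicate 1 or 2 or tea replicate 2 or 3, and that of Gdf3 in 8 fits, all but those without water replicate 5 or tea replicate 5.

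Septin9, Plxnd1, Bcar3, Dll4, Nkd1, Olfm1, Vac14 and Ano8 were named for their low p among the genes that fell. Septin9, a cytoskeletal GTPase, had 187.9, 154.0, 132.3, 128.6 and 122.6 CPM with water and 76.1, 73.1, 69.4, 63.2 and 87.5 CPM with tea (log2 −0.97, SE 0.12, edgeR adjusted p = 0.000428). Plxnd1, a semaphorin receptor, fell from 181.5 ± 27.9 to 80.6 ± 19.6 CPM (log2 −1.17, SE 0.16), Bcar3, an adaptor of integrin signalling, from 160.8 ± 34.1 to 56.8 ± 19.8 CPM (log2 −1.502, SE 0.22) and Dll4, a Notch ligand of endothelium, from 24.6 ± 1.86 to 13.4 ± 3.22 CPM (log2 −0.88, SE 0.14). Nkd1, an inhibitor and target of Wnt signalling, was 22.1 to 50.8 CPM with water and 5.94 to 16.6 CPM with tea (log2 −1.72, SE 0.27), and Olfm1, a secreted glycoprotein, 64.0 to 103.5 CPM and 15.4 to 43.9 CPM (log2 −1.73, SE 0.28). Vac14, a scaffold of phosphoinositide synthesis on endosomes, and Ano8, a protein at contacts of the endoplasmic reticulum with the plasma membrane, fell by 0.87 and 0.93. None of these 8 genes overlapped between the groups, and each was called in each of the 10 fits. Of 20 endothelial markers 0 were called by edgeR, DESeq2 or limma voom (median −0.03, 1 at an unadjusted p below 0.05). Oxtr, the oxytocin receptor, had 200.5, 87.7, 47.1, 79.2 and 45.5 CPM with water and 7.97, 3.06, 2.44, 3.35 and 27.4 CPM with tea (log2 −3.38, SE 0.77; call lost without water replicate 1 or tea replicate 2 or 3). Tph2, an enzyme of serotonin synthesis, was at 52.6 CPM in water replicate 1, at 3.48 to 8.36 CPM in the other water libraries and at 0 to 1.02 CPM with tea, and fell by 5.98 on the log2 scale and by 4.47 without water replicate 1, where it was not called. The call of Tph2 also ended without water replicate 2 or tea replicate 1, 2, 3 or 4.

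Glucocorticoid, clock and stress genes were examined next. Fkbp5, the receptor chaperone that glucocorticoids induce, had 39.8, 58.4, 148.9, 62.8 and 76.2 CPM with water and 216.3, 180.1, 221.9, 149.2 and 174.4 CPM with tea. Water replicate 3 and tea replicate 4 all but met, and the rise (log2 1.29, SE 0.30, edgeR adjusted p = 0.024) lost its call without water replicate 1, 2 or 4 or tea replicate 3. It was the 1 member called of 18 glucocorticoid response genes (median 0.55), beside 2.06% of all genes higher. Tsc22d3, another target, was not called (log2 −0.30). Of 12 core clock genes 0 were called by edgeR (3 at an unadjusted p below 0.05, and 1 called by DESeq2 and 0 by limma voom), and Per1 and Per2 had log2 values of 0.21 and 0.03. Of 16 genes of clock output and the repressor loop 2 rose, beside 2.06% of all genes, Por among them, with a median of 0.35 (0.22 without tea replicate 4). Dbp, an output gene of the clock, stood at 68.3 ± 13.4 CPM with water and 66.9 ± 17.0 CPM with tea (log2 −0.03, adjusted p = 0.957). Atf3, a stress-induced transcription factor, had 79.7, 61.8, 55.6, 53.7 and 40.7 CPM with water and 9.97, 3.24, 11.8, 3.89 and 24.1 CPM with tea (log2 −2.46, SE 0.56; call lost without water replicate 1 or 2 or tea replicate 2 or 3). It was 1 of 3 immediate early genes of 23 that fell, beside 2.3% of all genes. The median of that list was −0.732, and −0.129 without water replicate 4, where 1 member was called lower. Immediate early genes took 0.5202% of reads in water replicate 4 and 0.09631% to 0.1319% in the other water libraries. Nr4a2 fell by 4.04 on the log2 scale with 326.9 CPM in water replicate 4 and 3.35 to 13.3 CPM in the other water libraries, and by 1.10 without water replicate 4, where it was not called, as also without tea replicate 1, 2, 3 or 4. Of 28 NRF2 targets 1 rose, beside 2.06% of all genes: Gsr, glutathione reductase, stood at 28.2 to 36.8 CPM with water and at 40.4, 41.4, 66.6, 155.4 and 44.2 CPM with tea (log2 1.04, and 0.51 without tea replicate 4, where it was called; call lost without tea replicate 3 or any 1 water library). Of 30 cell cycle genes 28 had a log2 below 0 (median −0.90), with 1 called in each direction, beside 2.06% of all genes higher and 2.3% lower. Mki67, the proliferation marker, was 15.9 to 36.5 CPM with water and 4.85 to 16.7 CPM with tea (log2 −1.45, adjusted p = 0.185).

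Some large rises rested on tea replicate 4, the library with 3.34% kidney, 0.204% liver and 0.0798% intestine transcripts. Pth1r, the parathyroid hormone receptor that kidney tubules express strongly, had 8.26 to 11.9 CPM with water and 21.5, 23.2, 29.3, 514.4 and 14.9 CPM with tea, so that the groups did not overlap (log2 3.62, and 1.18 without that library, not called there nor without water replicate 1, 2 or 3). Gpx3, a secreted glutathione peroxidase made in kidney and fat, had 297.5, 372.6, 641.6, 351.3 and 448.8 CPM with water and 1371, 2291, 2460, 18470 and 979.1 CPM with tea. It was higher in each tea library than in each water library, and remained called without tea replicate 4 at a log2 of 2.07 in place of 3.60. Slc2a5, the fructose transporter, and Rdh16, a retinol dehydrogenase, rose by 6.64 and 5.63 with all libraries, with 92.3 and 197.2 CPM in tea replicate 4, and stood at 1.64 and 1.198 without it, not called. Their calls also ended without tea replicate 2 or any 1 water library, and that of Rdh16 without tea replicate 3. Wfdc2, Scnn1g and Krt7, genes of epithelia, were highest in tea replicates 2 and 4, with 30.6 and 49.7 CPM of Wfdc2 against 0 to 0.153 CPM with water. The calls of Wfdc2 and Krt7 ended without tea replicate 2 or any 1 water library, and that of Krt7 also without tea replicate 3 or 4. The listed mesothelial genes summed to 126.0 to 286.4 CPM with water and 228.1 to 731.4 CPM with tea. Of the 15, 1 was called higher, Krt7 (log2 4.28), beside 2.06% of all genes, and Msln and Upk3b, the defining markers, were not called (log2 0.38 and 0.58). The part of other tissue in the rises of Wfdc2, Scnn1g and Krt7 was not tested.

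**Figure D3:**
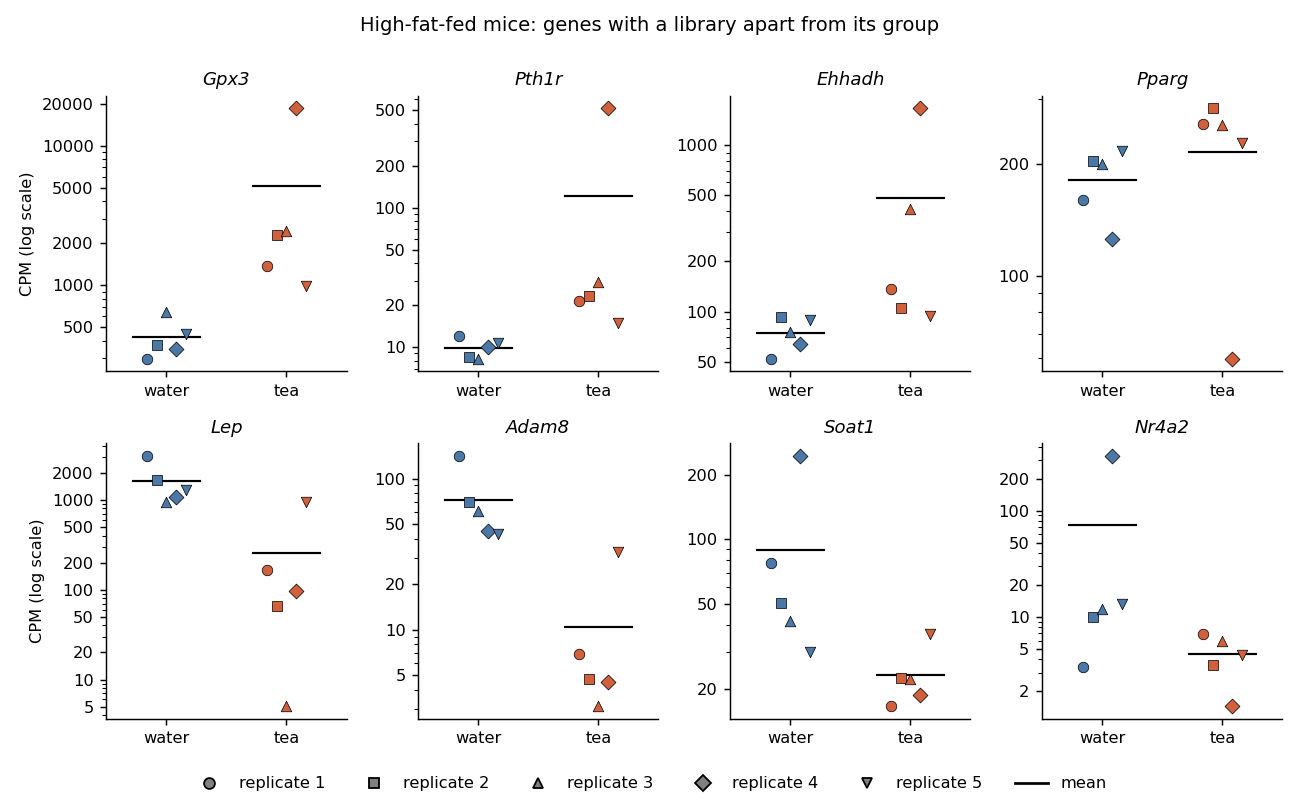
Level of 8 genes per high-fat library, in CPM on a log axis, with water (blue) and tea (red), symbols for replicate numbers and bars for means. Tea replicate 4 stands far above its group in Gpx3, Pth1r and Ehhadh and below it in Pparg, tea replicate 5 above it in Lep and Adam8, and water replicate 4 above its group in Soat1 and Nr4a2.

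**Figure D4:**
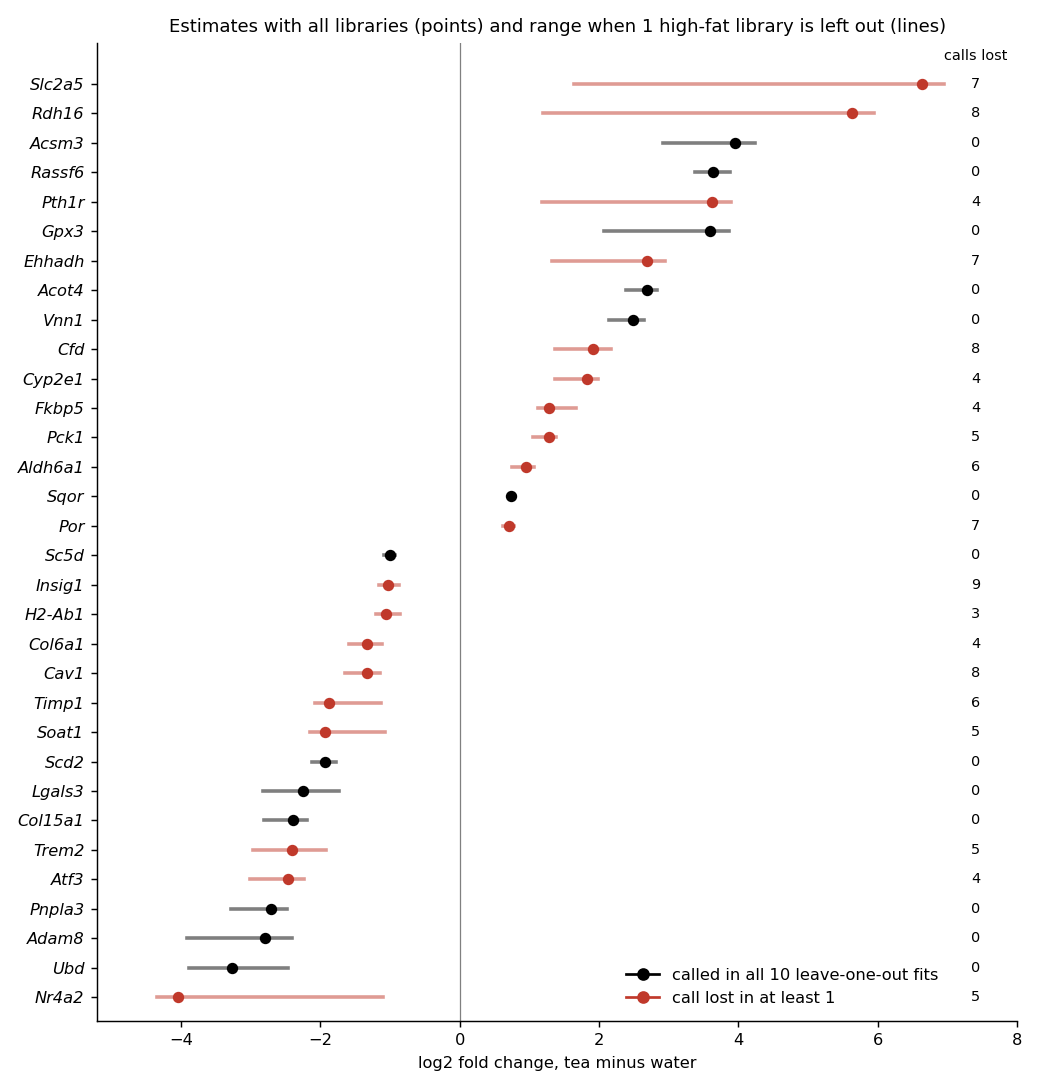
Log2 fold change (tea minus water) of 32 named genes with all libraries (points) and its lowest and highest value when any 1 of the 10 high-fat libraries was left out (lines). Black marks genes called in all 10 fits, red those whose call ended in at least 1, and the column at the right gives the number of fits in which it ended. No line crosses 0, and the longest belong to Slc2a5, Rdh16, Nr4a2 and Pth1r.

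Set beside chow-fed mice, the tea difference itself differed between the diets in 14 of 21306 genes (0.0657%) by edgeR's interaction test, with 3196 at an unadjusted p below 0.05. In Rassf6, Scd2, Septin9, Rnase2a and Eif4ebp3 the high-fat water group stood apart from the 3 others. These genes were picked from calls or values of the same libraries, so their shared pattern is a description and no separate support. Rassf6 was 9.85 to 16.9 CPM in chow with water and 11.2 to 19.8 CPM in chow with tea, levels within which 3 of the 5 high-fat tea libraries lay, while the 5 high-fat water libraries were at 1.19 CPM or less (interaction log2 3.52, SE 0.50, adjusted p = 0.00946). Scd2 was 25.1 to 66.2 CPM in chow with water and 80.6 to 114.2 CPM in chow with tea, so that tea was the higher group on chow and the lower on the high-fat diet (interaction log2 −2.95, adjusted p = 0.00238). Septin9 was 55.4 to 67.8 and 63.5 to 76.7 CPM in the chow groups, a range that holds 4 of the 5 high-fat tea libraries (interaction log2 −1.21, adjusted p = 0.00616). Among the 14 were also Rnase2a, an eosinophil-type ribonuclease, at 1.10 to 2.31 CPM in high-fat water and 0.0559 to 0.299 CPM in high-fat tea, and Eif4ebp3, a repressor of translation initiation, at 0.196 to 0.451 and 1.97 to 3.26 CPM, both chosen after their values were seen. In chow with water and with tea Rnase2a was 0.0753 to 0.179 and 0.0299 to 0.297 CPM, and Eif4ebp3 1.35 to 3.68 and 0.823 to 3.62 CPM. Of the exonic bases of Eif4ebp3 67% overlap another gene on its own strand. Dbp was called by interaction (log2 −1.73, adjusted p = 0.0291) with the chow groups at 1.97 to 3.64 CPM with water and 7.15 to 10.4 CPM with tea, against 48.4 to 84.3 CPM over the 10 high-fat libraries. Npas2, a partner of the clock activator, was 13.3 to 41.4 CPM in chow and 0.581 to 2.46 CPM in the high-fat libraries. Diet and any difference in the hour of collection cannot be told apart here. The number of interaction calls ran from 3 (without water replicate 2 or 5) to 111 (without tea replicate 5). It was 9, with 8 of them among the 14, without chow water replicate 1, the library with 36.13% pancreas transcripts.

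**Figure D5:**
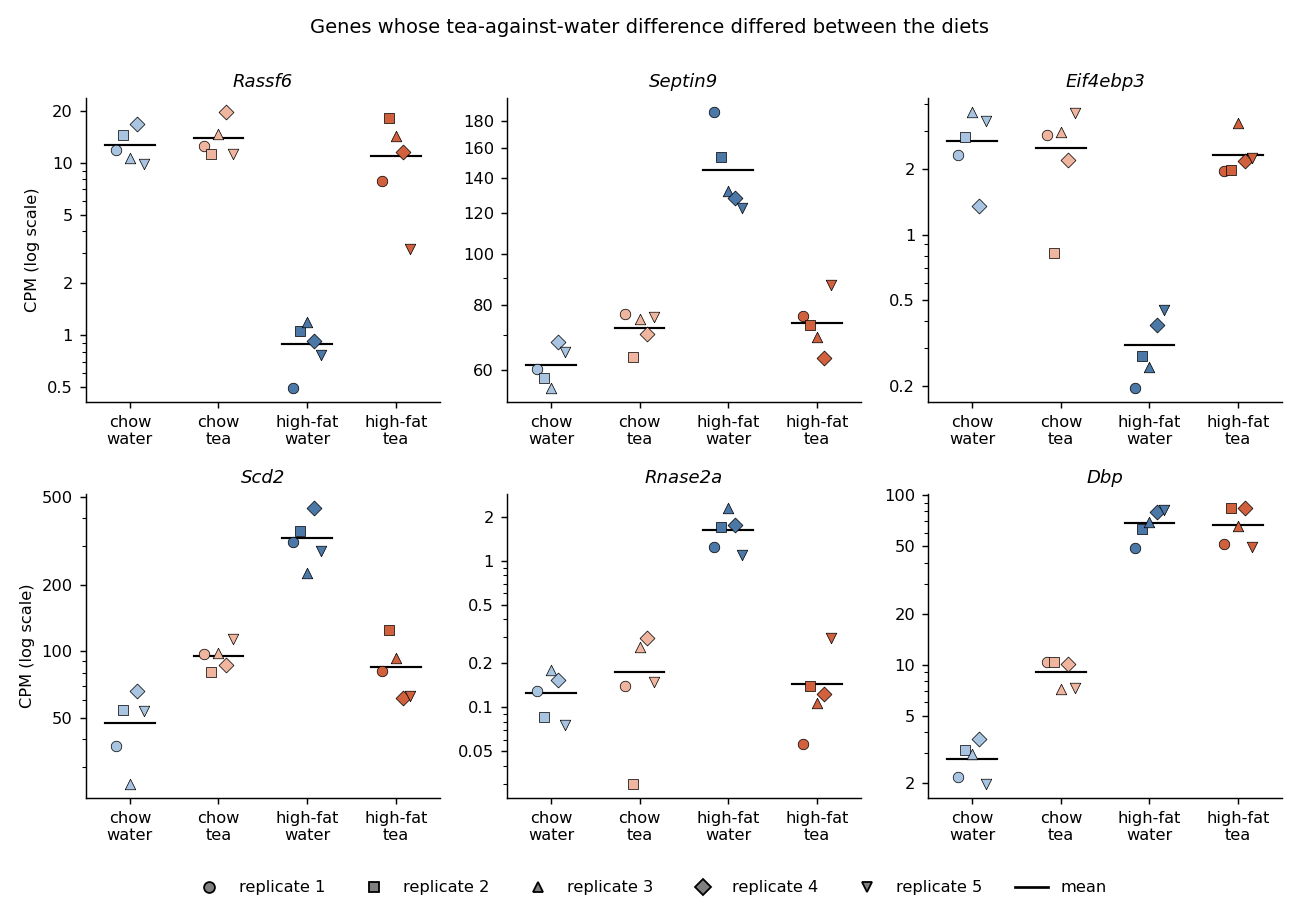
Level of 6 genes from the interaction test in all 20 libraries, in CPM on a log axis, for chow with water, chow with tea, high-fat with water and high-fat with tea, with symbols for replicate numbers and bars for means. In Rassf6, Septin9, Eif4ebp3, Scd2 and Rnase2a the high-fat water group is apart from the other groups, and in Dbp both high-fat groups are at 48.4 CPM or more.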

How the data were processed

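White adipose tissue RNA of 20 mice was sequenced, 5 per combination of diet and drink, from a stranded messenger RNA kit per the labels' protocols. The submitters' processing notes name fastp 0.23.2, HISAT2 2.2.1 and featureCounts 2.0.6 and the build mm10, whereas per the file headers the deposited counts were made on GRCm39 with GENCODE M32 and no strand option. Reads of overlapping genes on opposite strands therefore cannot be told apart. Gene positions follow the file headers. Of 56805 genes, 21306 passed edgeR's filter (the CPM that 10 reads make in a library of median size, reached by 5 libraries, and 15 reads over all). Counts were scaled by TMM and tested with edgeR 4.0.16 (R 4.3.3) by a quasi-likelihood F test on group means of all 20 libraries, with Benjamini-Hochberg adjustment over all genes tested and a threshold of 0.05. The script was tested on simulated data. Named genes were the called genes with the 15 lowest p values and, without overlap, the 10 largest folds per direction above a mean log2 CPM of 1, list members led by up to 4 called ones per list, and genes set by name; some genes are not reported here. The 47 lists and the genes in them were chosen with earlier results of these data known. Alternatives used DESeq2 1.42.0, limma 3.58.1 voom, other scalings and filters, a replicate block, and fits without libraries. Replicate numbers were not taken to pair mice across groups in the main fit, and the labels state no pairing. The headers show paired-end input with mates not counted as pairs, and 68.198% to 71.036% of counts from 1 to 20 were even in the high-fat libraries, so a count is nearer to a mate than to a fragment; halving the counts was an alternative.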

Additional observations from a re-analysis of the deposited data

Results flagged for a closer look

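Among 230 groups of 5 libraries, 1 group for each drink and gene named, 50 (21.7%) held a library whose gap to the nearest of the others exceeded Dixon's critical value of 0.71 of the group's range, where chance gives about 1 in 20 for normally distributed values. Tea replicate 4 was apart in 15 of the 50, water replicate 1 in 14 and tea replicate 5 in 13, and genes of 1 library are not independent of each other. The values were CPM without a log, and many of the genes were named for their p or fold in these libraries. The 21.7% therefore cannot be set against 1 in 20 as a test.

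Tea replicate 4 was far above the other tea libraries in Glt1d1 (27.0 CPM), Acsm3 (713.5 CPM), Rogdi (42.46 CPM), Med14 (90.31 CPM), Acot3 (15.34 CPM), Scnn1g (35.78 CPM), Rdh16 (197.2 CPM), Pth1r (514.4 CPM), Gpx3 (18470 CPM), Nqo1 (77.38 CPM), Ehhadh (1658 CPM), Gsr (155.4 CPM), Fmo2 (412.9 CPM) and Slc2a5 (92.34 CPM), and far below them in Pparg (59.91 CPM). This is the library in which kidney transcripts took 3.34% of reads.

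Water replicate 1 was far above the other water libraries in Tph2 (52.57 CPM), Oxtr (200.5 CPM), Mmp12 (293.6 CPM), Ubd (185.7 CPM), Saa3 (68.37 CPM), F7 (39.38 CPM), Tnip3 (18.15 CPM), Adam8 (141.2 CPM), Trem2 (101.0 CPM), Ccl2 (18.43 CPM), Tnf (1.64 CPM), Lgals3 (930.2 CPM), Gpnmb (863.0 CPM) and Il1rn (47.74 CPM). Tea replicate 5 was far above the other tea libraries in Rbm28 (51.38 CPM), Elmo2 (43.26 CPM), Tph2 (1.021 CPM), Oxtr (27.39 CPM), Mmp12 (56.86 CPM), Ubd (17.04 CPM), Dhrs9 (5.99 CPM), Tnip3 (2.628 CPM), Adam8 (32.59 CPM), Lep (942.7 CPM), Pgd (257.7 CPM), Lgals3 (205.7 CPM) and Gpnmb (222.8 CPM). Macrophage and inflammation genes recur in both lists.

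Water replicate 4, which held adrenal and male reproductive tract transcripts, was high in Disp2 (34.6 CPM), Soat1 (244.8 CPM), Nr4a2 (326.9 CPM) and Nt5e (10.91 CPM). Tea replicate 2 was high in Capn13 (12.74 CPM) and Fasn (3529 CPM), tea replicate 3 in Cyp2e1 (10030 CPM) and water replicate 5 in Nqo1 (12.94 CPM).

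Among the 14 genes whose tea difference differed between the diets in edgeR's interaction test were the following, with the log2 of high-fat minus chow, Rassf6 (3.515), Acot4 (2.364), Sqor (0.949), Septin9 (−1.212), Scd2 (−2.947), Ano8 (−0.993), Vac14 (−1.064) and Dbp (−1.73).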

How the results depend on the processing

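The count of 928 genes called in tea against water moved with the settings more than the direction of those genes, of which at most 2 had the other sign in any setting. It was 21 with only the 2 high-fat groups, 2391 with DESeq2, 408 with no filter on low counts, 1577 without chow water replicate 1, 561 without tea replicate 4 and water replicate 4 together and 152 without tea replicates 1 and 4 and water replicates 4 and 5 together. With 1 high-fat library left out at a time it ran from 212 to 2017. Limma voom called 1119 genes, 340 higher and 779 lower, against 439 and 489. With the replicate block 632 were called, 245 higher and 387 lower; deviations of same-numbered mice correlated at −0.321, 0.143, 0.333, 0.319 and −0.336, and the block left 14 interaction calls, 9 of them shared. The 14 interaction calls became 683 with DESeq2, 6 with limma voom, 4 with no filter, 9 without chow water replicate 1, 7 without the 4 libraries above, and 3 to 111 with 1 high-fat library left out. Among the 118 genes named by the rule, signs turned in 4, none of them called. Without tea replicate 4, Adipoq stood at 0.041, Fasn at 0.053 and Scd1 at 0.12, and without the 4 libraries Fasn stood at 0.152 and Dbp at 0.15. Dbp was at 0.004 without chow water replicate 1 and between 0.04 and 0.062 without tea replicate 1 (0.053), tea replicate 5 (0.062), water replicate 4 (0.054) or water replicate 5 (0.04). With 1 library left out, Adipoq ran from −0.34 to 0.041, Fasn from −1.517 to 0.053, Scd1 from −0.276 to 0.12 and Dbp from −0.131 to 0.062. The cause was not tested. With 5 mice a group, the spread between mice limits the precision.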
